A study of Mus musculus with 13 samples.

Results

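The nuclear genes that encode the proteins of the mitochondrial ribosome were described in mouse skeletal muscle across genotype and diet. Members were the protein-coding genes of the count table whose GRCm38 symbol begins with Mrpl or Mrps followed by a digit. This rule took 78 of 49315 gene rows, 49 with an Mrpl and 29 with an Mrps symbol, and used no measured value. All 78 were among the 16496 genes tested, and the lowest count of any member in any library was 18 reads, for Mrpl53.

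RNA sequencing of polyA-selected RNA gave 13 libraries in 4 groups. Chow flox (n = 3) and HFSC flox (n = 4) came from mice homozygous for a floxed miR-181a2b2 locus, and chow KO (n = 3) and HFSC KO (n = 3) from systemic miR-181a2b2 -/- mice. HFSC is a diet whose abbreviation the labels leave unexplained. The sources used here give no strain, age, sex or Cre driver. Hindlimb ischemia is named for the series as a whole, with no limb or time for any sample, so its part in any difference between libraries cannot be told apart. The labels do not say whether libraries of a group came from separate animals, and the p-values therefore reflect the spread between libraries, some of which may be technical.

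The mitochondrial ribosome translates the few messenger RNAs of the mitochondrial genome, all of which encode subunits of the respiratory chain and of ATP synthase. Its RNAs are made inside the organelle, whereas its proteins are encoded in the nucleus, made in the cytosol and imported. Some of these proteins descend from those of bacterial ribosomes and others are found only in mitochondria. By background knowledge of the universal ribosomal protein names, 51 members belong to the large subunit and 26 to the small subunit, and 46 belong to bacterial families and 31 are specific to mitochondria. Mrps36 was counted in neither subunit because its product is known as a part of the 2-oxoglutarate dehydrogenase complex. The symbols do not always give the subunit: Mrps18a and Mrps30 encode proteins of the large one.

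Libraries held 20830943 to 45710227 counts, so that 3 counts, the limit that a count of 0 allows, stood for 0.0656 to 0.144 CPM, the standard unit of reads scaled to a common total. Reads carry no molecular identifiers, and this limit covers counting error only. Levels are CPM with TMM factors (trimmed mean of M values), which correct the totals for a few dominant genes. White adipose tissue is named in the extraction protocol, whereas each source label is skeletal muscle. Acta1, skeletal muscle actin, lay at 16600 to 30600 CPM in every library and Adipoq, the adipocyte hormone adiponectin, at 7.11 to 30.7 CPM. The knocked-out locus could not be checked in these libraries of polyA-selected RNA, since Mir181a-2 had 0 to 2 reads and Mir181b-2 had 0 reads in all 13 libraries. Chow flox replicates 2 and 3 stood apart from chow flox replicate 4, with TMM factors of 1.18 and 1.32 against 0.877. HFSC flox replicate 4 stood apart from the other flox libraries in mt-Nd3, a mitochondrially encoded gene, at 2.41 CPM against 23 to 56.4 CPM, with the KO libraries at 1.38 to 1.85 CPM. Without it, 0 members were called for KO against flox on HFSC and for diet in flox, as with it, and the members' median log2 fold changes were 0.17 and 0.13 in place of 0.15 and 0.14.

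The deleted locus encodes miR-181a-5p and miR-181b-5p, small RNAs that lower the output of messenger RNAs carrying a match to their seed, bases 2 to 8. The 2 mature sequences (RefSeq) are shown with the seed in capitals because the search for matches in the members rests on it:
miR-181a-5p: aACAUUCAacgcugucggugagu
miR-181b-5p: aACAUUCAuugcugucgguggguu
Both share the seed ACAUUCA. Its 8-base match TGAATGTA, on the transcribed strand, lay in the longest annotated 3' UTR of 1 of 78 members, 1.28%, against 878 of 13938 tested genes with such a UTR, 6.3%. The member was Mrpl16, of the bacterial L16 family of the large subunit, with the match in capitals at base 152 of 327:
Mrpl16: ttaaagttTGAATGTAacctcagg
The 7-base match TGAATGT, which lies within the 8-base one, was found in 9 members, 11.5%, against 2691 genes, 19.3%. Mrps30 had 3 such matches. A longer 3' UTR has more room for a match, and these shares were not adjusted for UTR length. A match is a description of the letters and shows no binding. Mature small RNAs were not measured, and whether other loci supply RNAs with this seed in KO muscle was not examined.

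Promoter windows from RefSeq (GRCm38.p6), 250 bases before to 50 after a gene's start, were available for 69 of 78 members, in 75 windows. The members Mrpl13, Mrpl15, Mrpl19, Mrpl38, Mrpl4, Mrpl54, Mrps28, Mrps34 and Mrps35 had no entry. Motifs of 3 factors known to act on nuclear genes for mitochondria were searched on both strands. The NRF1 motif, GCGCA and GCGC with any base between them, lay in 13 of 75 member windows, 17.3%, against 6.38% of all 21263 windows. The ETS family motif CCGGAAG, which GABPA can bind, lay in 26 windows, 34.7%, against 11.6%. The YY1 motif AAGATGGC lay in 12 windows, 16%, against 3.05%. At least 1 of the 3 was in 43 windows, 57.3%, against 18.9% of all windows. The 21263 windows are those of protein-coding genes whether or not they are expressed in muscle, so the shares are not matched for expression. The 250 bases upstream of the RefSeq start are shown for Mrpl45 (chr11:97315466-97315715, plus strand), Mrpl12 (chr11:120484387-120484636, plus strand) and Mrpl39 (chr16:84735245-84735494, minus strand). GENCODE M21, the source of the gene coordinates, places the starts of Mrpl12 and Mrpl39 elsewhere. By it the Mrpl39 stretch lies inside the gene (chr16:84717576-84735742), and the Mrpl12 stretch runs past the start at 120484613. These 3 were chosen because they were higher on HFSC in KO muscle and hold NRF1 matches, in capitals:
Mrpl45: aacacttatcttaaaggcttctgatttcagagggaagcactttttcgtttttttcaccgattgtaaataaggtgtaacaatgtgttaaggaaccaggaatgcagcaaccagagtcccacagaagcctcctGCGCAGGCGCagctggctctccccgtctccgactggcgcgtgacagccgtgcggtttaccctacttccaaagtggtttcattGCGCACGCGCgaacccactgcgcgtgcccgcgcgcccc
Mrpl12: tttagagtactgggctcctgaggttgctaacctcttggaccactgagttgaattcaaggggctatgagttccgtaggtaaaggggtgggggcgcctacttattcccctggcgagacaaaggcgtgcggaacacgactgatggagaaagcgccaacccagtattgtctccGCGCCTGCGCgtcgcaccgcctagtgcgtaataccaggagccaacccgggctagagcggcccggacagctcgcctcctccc
Mrpl39: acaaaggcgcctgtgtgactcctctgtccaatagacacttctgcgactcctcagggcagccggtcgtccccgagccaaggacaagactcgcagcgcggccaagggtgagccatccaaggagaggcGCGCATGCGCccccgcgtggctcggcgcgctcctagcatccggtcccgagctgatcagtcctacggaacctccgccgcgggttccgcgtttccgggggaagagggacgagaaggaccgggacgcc
Mrpl41 and Mrps36, also higher there, held none of the 3 motifs upstream. Median log2 fold changes of members with and without an NRF1 match were 0.24 and 0.22 for KO against flox on chow, and -0.02 and 0.01 for HFSC against chow in KO. For an ETS match they were 0.23 and 0.22, and -0.02 and 0.02, and for a YY1 match, held by 12 members, 0.31 and 0.22, and -0.02 and 0.02. These gaps were not tested.

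Members were well expressed. Their median level was 28.5 CPM, against 9.14 CPM over all genes tested, and 77 of 78 averaged at least 10 CPM. Scaled to exon length, the median was 11.4 CPM per kb. The highest per kb were Mrps21, a small-subunit protein of the bacterial S21 family, at 62.7, Mrpl12, the stalk protein of the large subunit that recruits translation factors, at 59.5, and Mrpl18, of the family that binds 5S rRNA in bacteria, at 48.2 CPM per kb. The lowest were Mrpl53 at 1.34, Mrps35 at 2.23 and Mrps25 at 2.89 CPM per kb. Exons are shared with other genes at both ends of this order. Mrpl53 (chr6:83109040-83109939, plus strand) shares 695 of its exon bases with Gm42688 on the same strand, and Mrps25 shares 4590 with Nr2c2 on the opposite strand, and at the high end Mrpl12 shares 200 with Gm16755 and Mrpl18 141 with Tcp1. In all, 33 members share exon bases with another gene, and reads of such pairs cannot be told apart without the strand setting, which is not given in the sources used here. Of the 5 named pseudogenes of the family in the table, Mrpl23-ps1 was the highest, at 0.214 to 0.797 CPM.

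**Figure D1:**
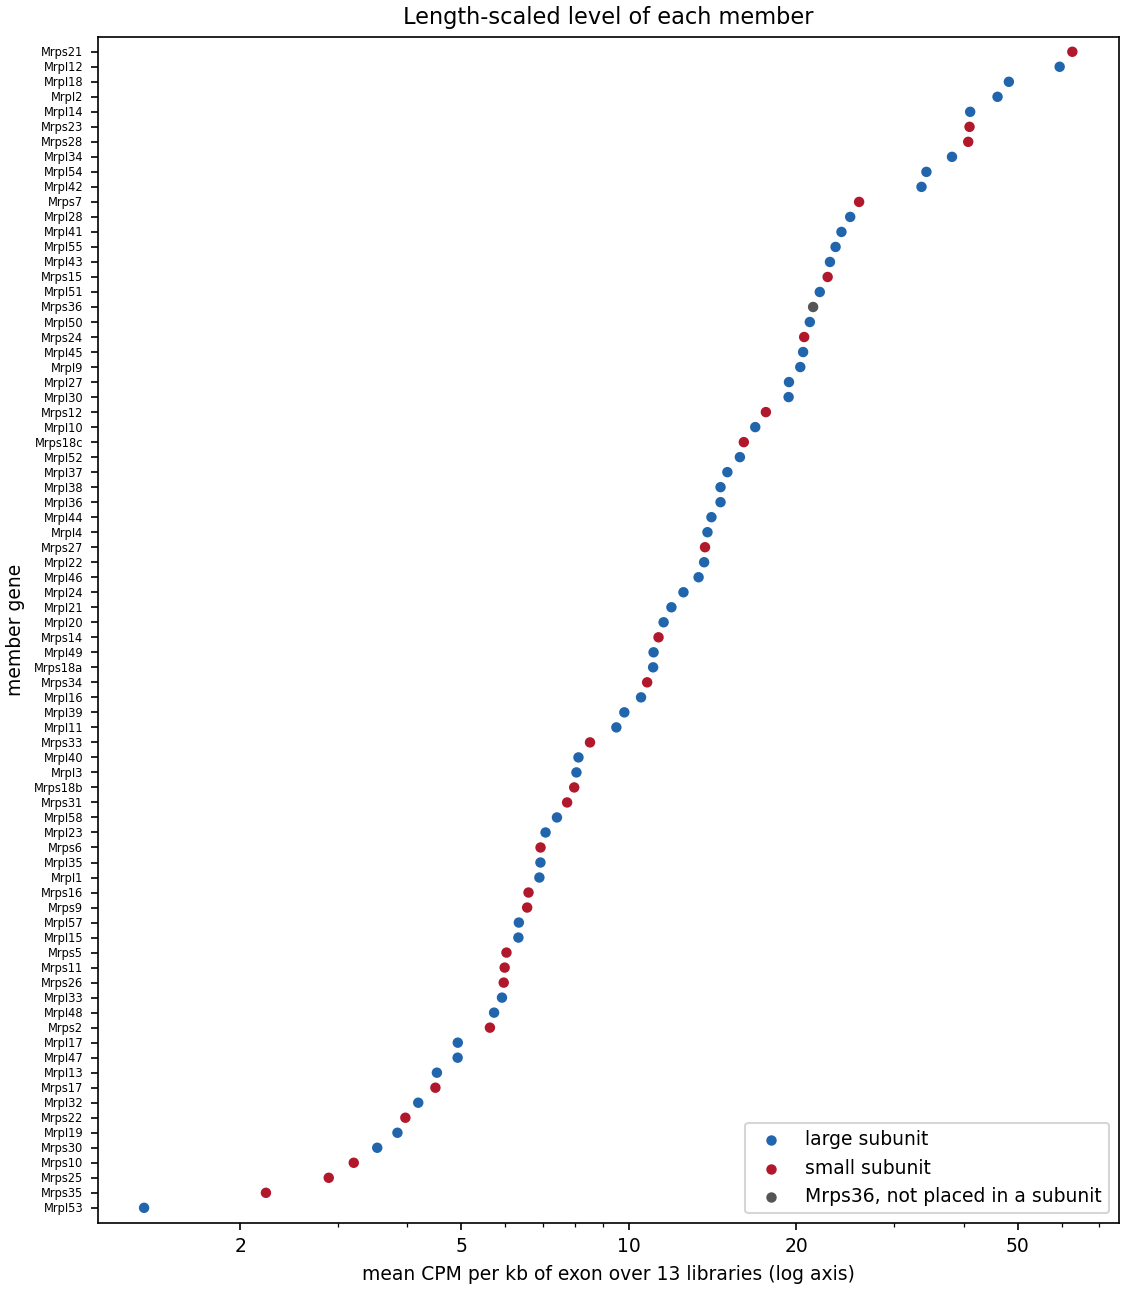
Mean CPM per kb of exon over the 13 libraries (log axis) for each of the 78 members, coloured by subunit. Levels run from 1.34 for Mrpl53 to 62.7 for Mrps21, with both subunits spread over the range.

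Levels of the members moved together from library to library. In chow flox replicate 3, 77 of 78 members were below their own mean over the 13 libraries, and in HFSC KO replicate 4, 72 were above it. The highest library exceeded the lowest by a median of 1.61 times, from 1.22 times for Mrpl24 to 2.33 times for Mrpl53. Chow flox replicate 3 was the lowest of the 13 libraries for 58 of 78 members, and HFSC KO replicate 4 the highest for 32. Such counts were not made over all genes tested, so they do not set the members apart from other genes. Summed over the members, the chow flox libraries (replicates 2, 3 and 4) held 2159, 1993 and 2796 CPM and the chow KO libraries (1, 2 and 3) 2448, 2837 and 2905 CPM. The HFSC flox libraries (1 to 4) held 2495, 2501, 2584 and 2600 CPM and the HFSC KO libraries (2, 3 and 4) 2859, 2601 and 3027 CPM. The group means were thus 2316 ± 424 (SD, n = 3), 2730 ± 247 (n = 3), 2545 ± 54.7 (n = 4) and 2829 ± 215 (n = 3) CPM. Chow flox overlapped both chow KO and HFSC flox, whereas the lowest HFSC KO library lay just above the highest HFSC flox library.

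**Figure D2:**
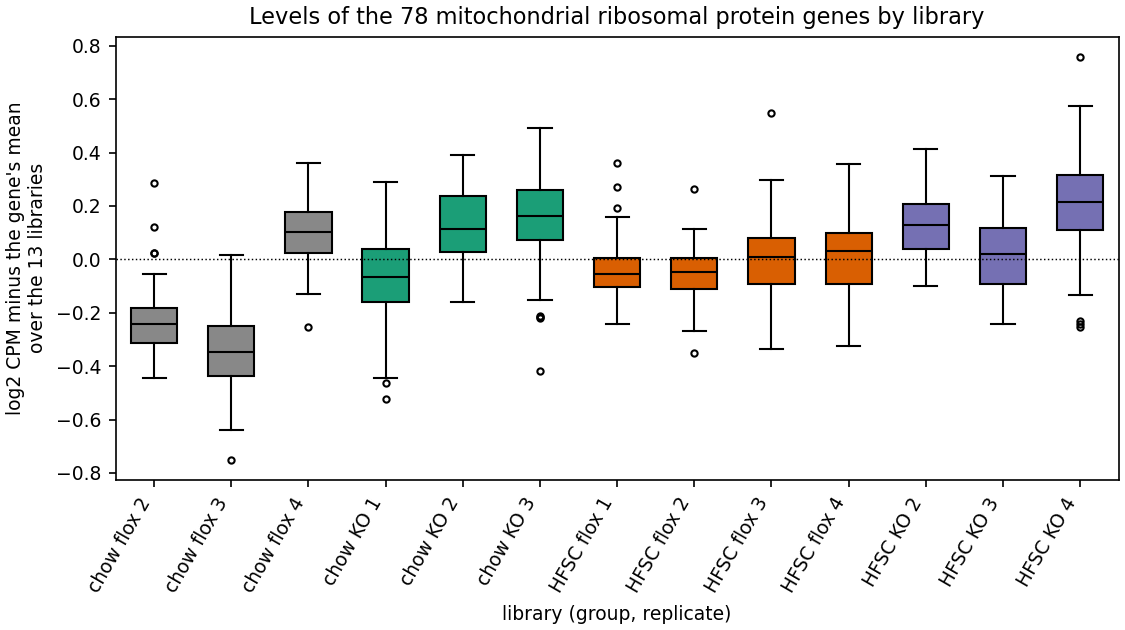
Log2 CPM of the 78 members minus each gene's mean over the 13 libraries, 1 box per library coloured by group (median, quartiles, whiskers to 1.5 times the quartile range, points beyond). Chow flox replicates 2 and 3 sit lowest, with medians of -0.24 and -0.35, and chow flox replicate 4 at 0.10.

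The 2 low chow flox libraries also differed in markers of cell types. The median of 5 muscle fibre markers, relative to each gene's mean on the log2 scale, was -0.37 and -0.58 in chow flox replicates 2 and 3 and 0.38 in replicate 4. Macrophage markers (8 genes) were at 0.92 and 1.66 against -0.64, and fibroblast and matrix markers (8 genes) at 0.43 and 1.27 against -0.74. No marker of these lists was at 0 in any library. In bulk tissue, fewer cells of a type and less RNA per cell cannot be told apart. As a share of all counts, with no TMM scaling, members made up 0.255%, 0.262% and 0.245% in chow flox replicates 2, 3 and 4, so the order of these 3 libraries is the reverse of that in TMM-scaled CPM. The 3 chow KO libraries held 0.235%, 0.245% and 0.242%, and the highest share, 0.310%, was again in HFSC KO replicate 4.

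HFSC was first compared with chow in KO muscle, where the members that passed the test lie. Of 78 members, 6 were higher on HFSC and 0 lower (edgeR quasi-likelihood test, Benjamini-Hochberg adjusted over 16496 genes, threshold 0.05). Among all genes tested 14.9% were higher and 10.6% lower, so the members' share of 7.69% lay below the background. The median log2 fold change of the members was 0.02, the same as that of all genes, and 42 of 78 were above 0 (background 51.7%). At an unadjusted p under 0.05 there were 12 members, 15.4% against 40.7% of all genes. The groups did not overlap, with HFSC KO higher, for 13 members, 16.7% (background 26.8%), and with HFSC KO lower for 6, 7.69% (background 23.8%).

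Of the 6 members higher on HFSC, 4 are specific to mitochondria and are counted among 31 such genes, and 1 is among the 46 of bacterial families. The difference between these shares was not tested. In the large subunit these were Mrpl39, Mrpl41, Mrpl45 and Mrpl12, and in the small subunit Mrps35. The other was Mrps36.

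Mrpl39 (chr16:84717576-84735742, minus strand), whose product resembles a threonyl-tRNA synthetase, was at 18.2, 23.9 and 21.2 CPM in the 3 chow KO libraries and 27, 28.4 and 32.5 CPM in the 3 HFSC KO libraries. All HFSC KO values lay above all chow KO values. Mean levels were 21.1 ± 2.86 and 29.3 ± 2.86 CPM (SD, n = 3 each), a log2 fold change of 0.48 ± 0.13 (SE; edgeR adjusted p = 0.0223). In flox muscle it was at 21.1, 22.7 and 23.3 CPM on chow and at 24.7, 22.6, 30.2 and 27.8 CPM on HFSC, where the groups overlapped.

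Mrpl12 (chr11:120484613-120489065, plus strand), which besides its place on the ribosome is known to bind the mitochondrial RNA polymerase, was at 71.4, 84.3 and 90.3 CPM in chow KO and at 119, 98.7 and 129.8 CPM in HFSC KO. The groups did not overlap, and the highest HFSC KO library was replicate 4. The log2 fold change was 0.50 ± 0.15 (edgeR adjusted p = 0.0316). In flox muscle the values were 68.8, 65.1 and 91.3 CPM on chow and 86.5, 85.9, 92.3 and 102 CPM on HFSC, so that chow flox replicate 4 lay within the HFSC range. Mrpl12 shares 200 exon bases with the noncoding Gm16755 on the opposite strand, and is the only one of the 6 that overlaps another gene.

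Mrps35 (chr6:147042764-147073991, plus strand), a protein of the small subunit, was at 16, 18.9 and 16.4 CPM in chow KO and at 23.5, 21.4 and 22.4 CPM in HFSC KO. This was a log2 fold change of 0.39 ± 0.12 (edgeR adjusted p = 0.0320), and the groups did not overlap. Mrpl41 (chr2:24974117-24975098, minus strand), a large-subunit protein, was at 20.1, 20.7 and 19.1 CPM in chow KO and at 24.9, 22.1 and 31.2 CPM in HFSC KO, a log2 fold change of 0.38 ± 0.12 (edgeR adjusted p = 0.0379). Its HFSC KO spread rests on replicate 4, without which the log2 fold change was 0.21 (edgeR adjusted p = 0.199).

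Mrpl45 (chr11:97315716-97329920, plus strand) sits at the exit of the ribosome's tunnel and ties the ribosome to the inner membrane. It was at 38.7, 48.9 and 51.9 CPM in chow KO and at 64.5, 60.5 and 65.6 CPM in HFSC KO, a log2 fold change of 0.45 ± 0.15 (edgeR adjusted p = 0.0452). Mrps36 (chr13:100735955-100744659, minus strand) was at 21.2, 25.7 and 24.9 CPM in chow KO and at 35, 27.3 and 39.8 CPM in HFSC KO, a log2 fold change of 0.51 ± 0.17 (edgeR adjusted p = 0.0405). For both genes every HFSC KO library lay above every chow KO library. The 3 named pseudogenes of Mrps36 were at 0.401 CPM or less in every library.

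**Figure D3:**
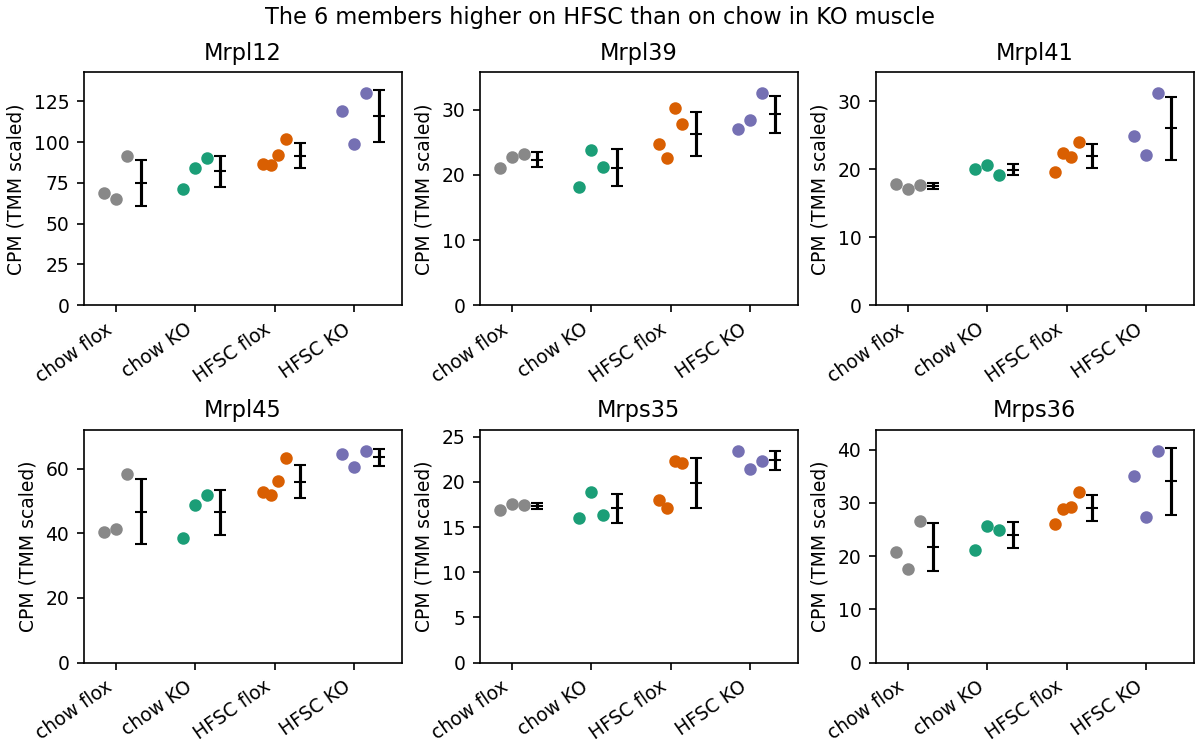
TMM-scaled CPM of the 6 members higher on HFSC than on chow in KO muscle, 1 point per library, with the mean and SD of each group beside it (n = 3, 3, 4 and 3). In each panel all 3 HFSC KO points lie above all 3 chow KO points, while flox groups overlap except for Mrpl41.

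These calls depended on single libraries. None of the 6 passed without chow KO replicate 1, chow KO replicate 3 or HFSC KO replicate 4, 1 passed without HFSC KO replicate 2 and 2 without chow KO replicate 2. Without chow flox replicate 4, which is in neither group and enters through the shared estimate of spread, 10 members passed, 9 higher (background 20%) and 1 lower (Mrps26; background 16.1%). Scaled by library totals instead of TMM, 17 members were higher (background 14.6%) and 0 lower. DESeq2 called the same 6 (background 16.5%), and limma voom 11 higher (background 22.8%) and 4 lower (background 20.3%). In this contrast 8 of 8 matrix markers and 7 of 8 macrophage markers were also higher on HFSC. Summed matrix markers were at 393 to 606 CPM in chow KO and 2520 to 3050 CPM in HFSC KO, and macrophage markers at 30.7 to 43.6 and 129 to 152 CPM. Endothelial markers were higher for 6 of 6 (sums 169 to 203 against 417 to 448 CPM) and adipocyte markers for 4 of 5 (177 to 221 against 443 to 663 CPM). Slow fibre markers were lower for 8 of 8, with a median of -3.10 and sums of 8610 to 10200 CPM in chow KO against 772 to 1270 CPM in HFSC KO. Among fast fibre markers 2 of 8, Myh1 and Mylpf, were called higher. The median of that list was -0.29, with 3 of 8 above 0. No marker of these lists was at 0 in any library, and their part in the members' values was not tested.

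KO was then compared with flox on chow to ask what loss of the locus did on that diet. No member passed: 0 of 78 were higher or lower by edgeR, against 1.38% of all genes higher and 10.1% lower. At an unadjusted p under 0.05 there were 23 members, 22 higher and 1 lower, 29.5% against 33.8% of all genes. DESeq2 called 3 higher (background 4.64%), and limma voom with sample quality weights called 65 higher (background 29.4%) and 1 lower (background 30.5%). Positive log2 fold changes were found for 73 of 78 members, 93.6% against a background of 49.4%, with a median of 0.22 against -0.01 for all genes. All 46 members of bacterial families were among these 73. Yet chow KO lay wholly above chow flox for only 4 members, Mrpl24, Mrpl41, Mrpl52 and Mrps26, 5.13% against a background of 10.9%, and wholly below it for 1, Mrpl44 (background 13.9%).

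The call depended on 1 library. Without chow flox replicate 4, 44 of 78 members were higher in chow KO, 56.4% against 20.8% of all genes, among them 29 of 51 in the large and 15 of 26 in the small subunit. Leaving out any other single library gave 0. Among all genes tested, 0 were called here on leaving out replicate 3 of either chow group, or replicate 2 of chow KO. The members' fold changes with all libraries ran from -0.42 for Mrpl44 to 0.54 for Mrpl55. Scaled by library totals, the median of the members was -0.11 and that of all genes -0.35, so the sign of the members' median depended on the scaling, while its distance from all genes was 0.25 in place of 0.23, and 1 member, Mrpl44, was called lower (background 18.3%). In chow KO, 8 of 8 matrix and 7 of 8 macrophage markers were lower than in chow flox (matrix sums 393 to 606 against 1220 to 6480 CPM, macrophage sums 30.7 to 43.6 against 72.4 to 324 CPM). Muscle fibre markers had 0 calls, with a median of 0.54. Whether these levels bear on the members' values was not tested.

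**Figure D4:**
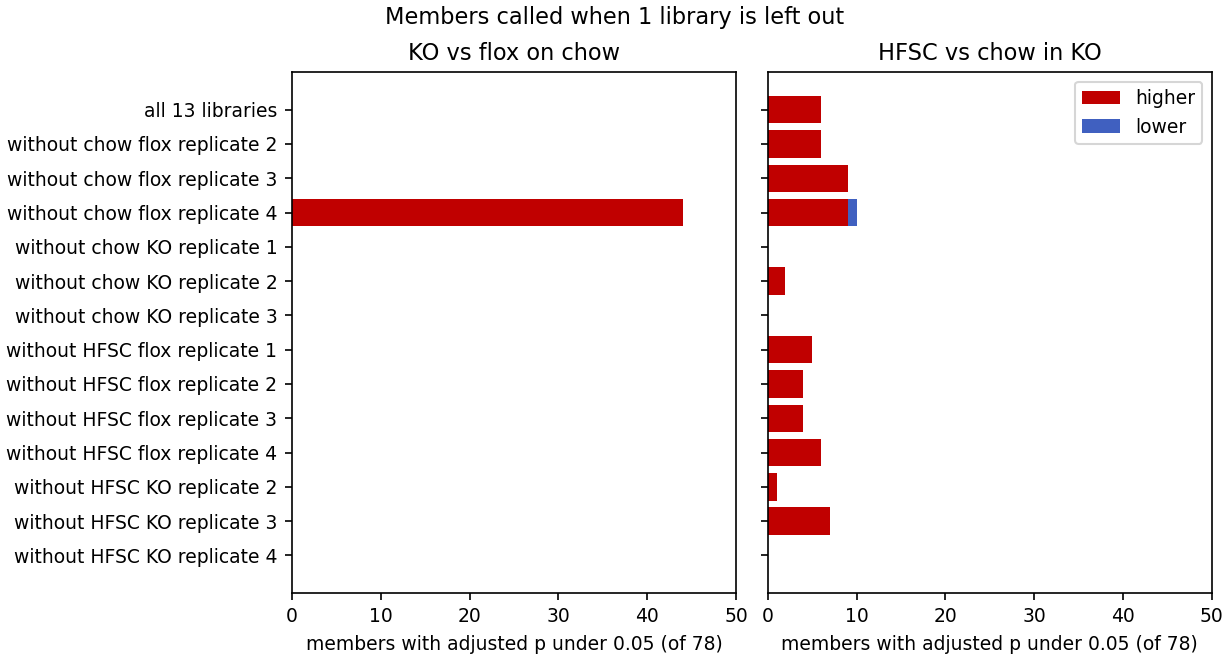
Number of the 78 members with an edgeR adjusted p under 0.05 with all 13 libraries and with each library left out in turn, for KO against flox on chow (left) and HFSC against chow in KO (right). On the left 44 members pass without chow flox replicate 4 and 0 otherwise, and on the right counts run from 0 to 10.

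The 3 members with the smallest p on chow belong to the large subunit, and none passed. Mrpl36, of the bacterial L36 family, was at 13.5, 13.4 and 19.3 CPM in chow flox and 19.1, 20.3 and 21.5 CPM in chow KO, with a log2 fold change of 0.40 ± 0.14 (edgeR adjusted p = 0.0729). Mrpl55 was at 17.4, 15.8 and 27.3 CPM against 25.4, 29.2 and 33.4 CPM, and Mrpl57 at 15.2, 14.5 and 21 CPM against 21.8, 24.3 and 20.7 CPM. For all 3 genes chow flox replicate 4 overlapped chow KO, and both other chow flox libraries lay below it. Log2 fold changes were 0.54 ± 0.19 for Mrpl55 and 0.40 ± 0.14 for Mrpl57 (edgeR adjusted p = 0.0747 for each). Without chow flox replicate 4 the adjusted p of the 3 genes was 0.00101, 0.000785 and 0.00148.

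On HFSC no member passed for KO against flox, 0 of 78 by each of edgeR, DESeq2 and limma voom. The background was also nearly empty, with 0.0182% of genes higher and 0.0% lower by edgeR. At an unadjusted p under 0.05 there were 11 members higher and 1 lower, 15.4% against 10.4% of all genes. Log2 fold changes were above 0 for 71 of 78, 91.0% against 50.6%, with a median of 0.15 against 0.0. Without HFSC KO replicate 4 the median was 0.07, and 3 members had an unadjusted p under 0.05 in place of 12. HFSC KO lay wholly above HFSC flox for 18 members, 23.1% against a background of 7.4%, and wholly below for 0 (background 5.31%). Matrix and macrophage markers had no call here, and their summed ranges lay close together (2520 to 3050 against 2930 to 4250 CPM for matrix, 129 to 152 against 125 to 173 CPM for macrophages).

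Mrps34, a small-subunit protein, had the smallest p on HFSC. It was at 20.1, 18.3, 20.02 and 19.9 CPM in HFSC flox and 24.6, 24.5 and 26 CPM in HFSC KO, with no overlap, a log2 fold change of 0.35 ± 0.10 (edgeR adjusted p = 0.276). Its exons share 763 bases with Nme3 on the same strand and 1309 with Mapk8ip3 on the other, so part of these reads may belong to a neighbour. Mrpl23, whose product lines the exit of the ribosome's tunnel, was at 28.9, 30.9, 31.7 and 27.4 CPM against 36.6, 34.2 and 39.7 CPM, a log2 fold change of 0.31 ± 0.11 (edgeR adjusted p = 0.373). Mrpl58, a peptidyl-tRNA hydrolase built into the large subunit that can free stalled chains, was at 23.8, 19.3, 25.1 and 24.5 CPM against 29, 27.3 and 30.01 CPM, a log2 fold change of 0.31 ± 0.11 (edgeR adjusted p = 0.373). Both had every KO library above every flox library on HFSC.

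Mrpl44 (chr1:79776018-79781445, plus strand), a large-subunit protein with a fold related to ribonuclease III, had the lowest log2 fold change of the 78 members in both genotype comparisons. On chow it was at 24.7, 23 and 27 CPM in flox and 15.8, 20.3 and 19.5 CPM in KO, with no overlap. Its log2 fold change there was -0.42 ± 0.16 (edgeR adjusted p = 0.0957), and -0.37 by limma voom (adjusted p = 0.0189). On HFSC it was at 29.1, 27.3, 33.2 and 20.1 CPM in flox and 22.1, 19.7 and 19.2 CPM in KO, with HFSC flox replicate 4 inside the KO range. The log2 fold change was -0.43 ± 0.15 (edgeR adjusted p = 0.362), and -0.56 without HFSC flox replicate 4 (edgeR adjusted p = 0.193). Neither difference passed by edgeR with TMM scaling, and with library totals the one on chow was -0.76 (edgeR adjusted p = 0.0203). Mrpl44 shares 126 exon bases with Wdfy1 on the opposite strand. The 2 comparisons have no library in common but were fitted together.

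**Figure D5:**
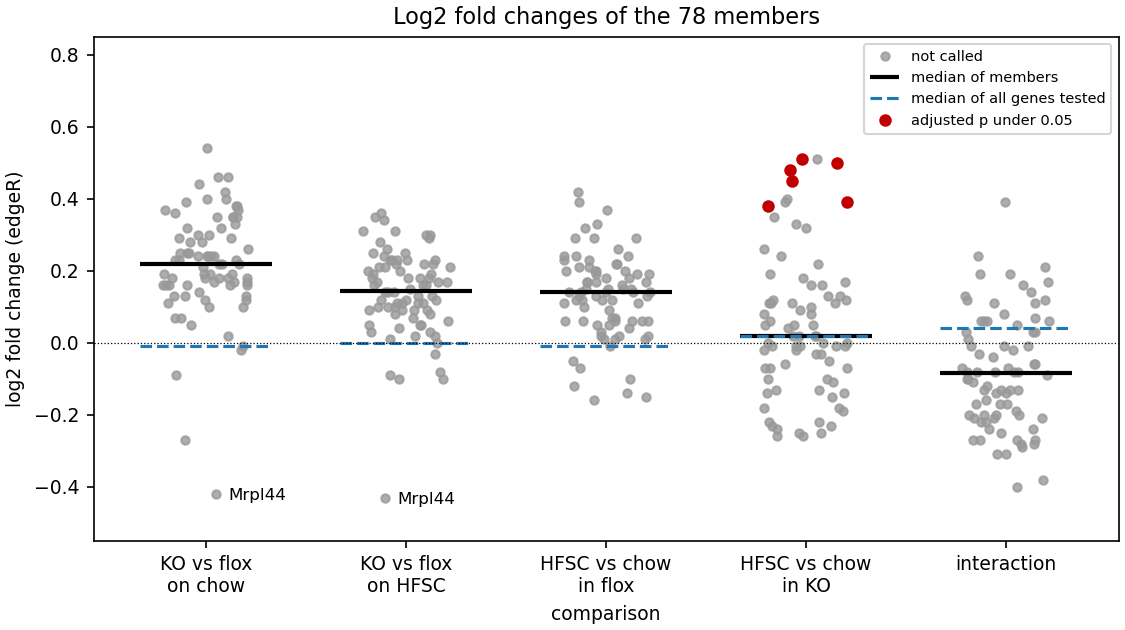
Log2 fold changes (edgeR) of the 78 members in the 4 comparisons and the interaction, with called members in red, the members' median as a black bar and the median of all genes tested as a dashed line. Red points appear only for HFSC against chow in KO, and Mrpl44 is the lowest point in both genotype comparisons, at -0.42 and -0.43.

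Members with a 7-base seed match had medians close to those of the other members. On chow the 9 with a match had a median log2 fold change for KO against flox of 0.24 and the 69 without one 0.21, and on HFSC the medians were 0.10 and 0.16. Mrpl16, with the 8-base match shown above, was at 26.9, 24.9 and 35.3 CPM in chow flox and 29.7, 39.0 and 38.2 CPM in chow KO, overlapping, with a log2 fold change of 0.30 ± 0.14 (edgeR adjusted p = 0.146). On HFSC it was at 29.7, 33, 33.8 and 32.2 CPM in flox and 38.3, 36.8 and 35.6 CPM in KO, without overlap, at 0.20 ± 0.13 (edgeR adjusted p = 0.628). Mrps30, with 3 of the 7-base matches, had log2 fold changes of 0.35 ± 0.13 on chow (edgeR adjusted p = 0.0910) and 0.14 ± 0.12 on HFSC (edgeR adjusted p = 0.744).

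In flox muscle no member passed for HFSC against chow by edgeR (0 of 78; background 0.115% higher and 0.303% lower). At an unadjusted p under 0.05, 7 members were higher and 0 lower, 8.97% against 12.8% of all genes in either direction. DESeq2 called 0 and limma voom 33 higher (background 12.7%). Log2 fold changes were above 0 for 70 of 78, against 47.8% of all genes, with a median of 0.14 against -0.01. Groups did not overlap for 3 members, all higher on HFSC, namely Mrpl3, Mrpl41 and Mrpl48 (background 4.26% higher and 5.6% lower). Without chow flox replicate 4, 12 members were higher, 15.4% against 4.36% of all genes, and the median was 0.27, while without chow flox replicate 3 it was 0.07. Slow fibre markers were lower on HFSC for 7 of 8 in this contrast, with a median of -2.61 and sums of 6900 to 8880 CPM in chow flox against 819 to 2070 CPM in HFSC flox. Their part in the members' values was not tested.

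The smallest p in flox muscle belonged to Mrpl41, at 17.9, 17.1 and 17.7 CPM on chow and 19.7, 22.3, 21.8 and 24.1 CPM on HFSC, a log2 fold change of 0.32 ± 0.12 (edgeR adjusted p = 0.268). In KO muscle its value was 0.38 ± 0.12. Mrps36 was at 20.8, 17.7 and 26.7 CPM on chow and 26, 28.9, 29.2 and 32.1 CPM on HFSC, a log2 fold change of 0.42 ± 0.16 (edgeR adjusted p = 0.279), where the highest chow library lay above the lowest HFSC library. Mrpl1, a protein of the mobile stalk at the ribosome's exit site, was at 23.3, 20.7 and 30.2 CPM against 32.4, 27.5, 35.4 and 33.7 CPM, a log2 fold change of 0.39 ± 0.16 (edgeR adjusted p = 0.326). The comparisons of genotype on chow and of diet in flox share the chow flox libraries, so that low values there enter both.

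Whether the genotype difference depended on diet was asked with the interaction, the difference on HFSC minus that on chow. It was called for 0 of 78 members by edgeR and by DESeq2, against a background of 0.0% of all genes, and 0 members had an unadjusted p under 0.05, against 29.2% of genes. Limma voom called 15 lower (background 19.9%), and 11 were lower by edgeR without chow flox replicate 4 (14.1% against 16.1% of all genes). The median was -0.09 against 0.04 for all genes, and 24 of 78 were above 0 (background 52.9%). The sign of this median was not stable: it was 0.22 with library totals (0.37 for all genes) and 0.02 without chow flox replicate 3, and -0.26 without chow flox replicate 4. Mrps14, of the bacterial S14 family in the small subunit, had the smallest p, at -0.38 ± 0.19 (edgeR adjusted p = 0.210). It was at 30.8, 28.8 and 41.6 CPM in chow flox, 36, 42.6 and 44.7 CPM in chow KO, 39.6, 36.5, 36.5 and 36.7 CPM in HFSC flox and 35.4, 30.9 and 38.9 CPM in HFSC KO. The groups overlapped on each diet and in each genotype. Mrpl57 followed at -0.31 ± 0.19 and Mrpl17 at -0.22 ± 0.14 (edgeR adjusted p = 0.280 and 0.298). For the 6 members higher on HFSC in KO, interaction estimates ran from 0.06 ± 0.17 for Mrpl41 to 0.24 ± 0.18 for Mrpl39, none with an unadjusted p under 0.05, so a larger diet difference in KO than in flox was not shown.

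Both subunits had similar medians. For the large and the small subunit the median log2 fold change was 0.22 and 0.23 for KO against flox on chow, 0.15 and 0.12 on HFSC, 0.14 and 0.13 for diet in flox, and 0.05 and -0.01 for diet in KO. Between origins the wider gap was for diet in KO, where 19 of 46 members of bacterial families and 22 of 31 mitochondria-specific ones were above 0 (medians -0.01 and 0.09). Of the 16 small-subunit members of bacterial families 3 were above 0. These are descriptions, and the differences were not tested.

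Single members with a distinct role did not pass in either genotype comparison. Mrps12, the protein of the decoding centre in which bacteria acquire streptomycin resistance, was at 13.7 to 19.6 CPM in chow flox, 17.9 to 22.1 in chow KO, 16.6 to 19.9 in HFSC flox and 17.4 to 19.2 CPM in HFSC KO, with all groups overlapping. Mammals have 3 proteins related to bacterial S18. By their universal names Mrps18c is counted among the bacterial families, and Mrps18a and Mrps18b among the 31 specific to mitochondria, although they are relatives of it. Mrps18a, the one in the large subunit, was at 31.5 to 48.8, 41.4 to 55.7, 35.5 to 38.4 and 39.6 to 41.7 CPM in the same 4 groups, and Mrps18b at 12.6 to 20.4, 19.3 to 20.4, 13 to 15.8 and 15.8 to 19.99 CPM. Mrps18c, of the same bacterial family, was at 14.3 to 19.1, 16.9 to 21, 16.4 to 17.9 and 14.6 to 19.4 CPM. KO against flox on chow gave 0.38 ± 0.15, 0.37 ± 0.17 and 0.22 ± 0.14 for Mrps18a, Mrps18b and Mrps18c, with edgeR adjusted p of 0.112, 0.136 and 0.284.

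The genes around the ribosome were taken from lists of related function. Other names are carried by 5 ribosomal proteins (Dap3, Ptcd3, Chchd1, Aurkaip1 and Gadd45gip1), and 0 of the 5 passed in any comparison. Their medians, 0.22 and 0.14 for KO against flox on chow and HFSC and 0.10 and 0.09 for diet in flox and KO, lay near those of the members. Among 24 assembly factors, 2 were higher in chow KO than in chow flox. Both calls were lost on leaving out replicate 3 of either chow group, or replicate 2 of chow KO. Malsu1, which binds the large subunit as it matures, was at 16.9, 15.5 and 26.2 CPM in flox and 30.1, 27.7 and 33 CPM in KO without overlap, a log2 fold change of 0.64 ± 0.17 (edgeR adjusted p = 0.0359). Rcc1l, which takes part in the assembly of both subunits, was at 19.2, 18 and 24.3 CPM against 27.4, 27.8 and 28.3 CPM, a log2 fold change of 0.44 ± 0.13 (edgeR adjusted p = 0.0424).

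For diet in KO, 2 of 24 assembly factors were lower on HFSC and none higher, against 10.6% of all genes lower and 14.9% higher. Rcc1l fell to 20.5, 20.1 and 21.9 CPM, a log2 fold change of -0.42 ± 0.13 (edgeR adjusted p = 0.0316), and Ybey, of an endoribonuclease family known in small-subunit maturation, fell from 8.05, 8.67 and 7.89 CPM to 4.94, 4.92 and 4.61 CPM, a log2 fold change of -0.77 ± 0.17 (edgeR adjusted p = 0.0103). Both comparisons of Rcc1l share the chow KO libraries. Of 15 translation factors 1 passed, Mrrf, which recycles the ribosome after termination and was higher on HFSC in KO by 0.45 ± 0.11 (edgeR adjusted p = 0.0140). In flox its value was 0.42 ± 0.10 (edgeR adjusted p = 0.109). Of 8 genes that transcribe and maintain the mitochondrial genome, Tfb2m, a transcription initiation factor, passed for KO against flox on chow (0.56 ± 0.16, edgeR adjusted p = 0.0419). The Tfb2m call was lost on leaving out replicate 3 of either chow group, or replicate 2 of chow KO.

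Among 20 mitochondrial tRNA synthetases Cars2, which charges the tRNA for cysteine, passed at the threshold for diet in KO (0.32 ± 0.11, edgeR adjusted p rounding to 0.05). In that comparison 14.9% of all genes were higher. Of 9 regulators of nuclear genes for mitochondria, Ppargc1a, the coactivator PGC-1 alpha, passed for diet in KO, with a log2 fold change of 0.99 ± 0.30 (edgeR adjusted p = 0.0322). It was at 41.0, 57.2 and 71.0 CPM on chow and at 58.7, 173.6 and 104.6 CPM on HFSC in KO replicates 2, 3 and 4, so the groups overlapped. The library with the most Ppargc1a, HFSC KO replicate 3, had the lowest summed level of the members in its group, 2601 CPM. This is a single library, and a relation between Ppargc1a and the members was not tested.

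Other families are set beside the members by their medians over KO against flox on chow, KO against flox on HFSC, diet in flox and diet in KO, in this order. The members had 0.22, 0.15, 0.14 and 0.02. Cytosolic ribosomal proteins (82 genes) had 0.19, 0.20, -0.10 and -0.06, with 2 higher and 2 lower for diet in KO. Among all genes 14.9% were higher and 10.6% lower in that comparison. Nuclear-encoded subunits of the respiratory chain (80 genes) had 0.23, 0.22, 0.23 and 0.23, with 9 higher and 1 lower for diet in KO and 2 lower, Cox6a1 and Cox8a, for KO against flox on chow. The 13 mitochondrially encoded proteins, the products of this ribosome, had 0.56, -0.19, 0.43 and -0.11, with 2 called lower for KO against flox on chow, mt-Nd3 (-4.24 ± 0.83, edgeR adjusted p = 0.0178) and mt-Nd4l (-1.09 ± 0.31, edgeR adjusted p = 0.0436). Their calls, and the chow calls of Cox6a1 and Cox8a, depended on single libraries. All were lost on leaving out replicate 3 of either chow group, or replicate 2 of chow KO. mt-Nd3, a subunit of complex I, was at 23.5, 23 and 44.4 CPM in chow flox, 1.40, 1.56 and 1.85 CPM in chow KO, 52.7, 56.4, 37.1 and 2.41 CPM in HFSC flox and 1.40, 1.38 and 1.61 CPM in HFSC KO. HFSC flox replicate 4 thus lay near the KO libraries for mt-Nd3, as it lay within their range for Mrpl44. Muscle fibre markers (5 genes, 0 called in any comparison) had 0.54, -0.02, 0.15 and -0.30. Slow fibre markers (8 genes) had 0.16, -0.29, -2.61 and -3.10, with 7 and 8 called lower for diet in flox and in KO, and fast fibre markers (8 genes) 0.54, 0.08, 0.22 and -0.29. Medians of the members and of the nuclear respiratory chain genes lay close together on chow and further apart for diet in KO, a difference that was not tested.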

How the data were processed

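PolyA RNA sequencing of skeletal muscle gave 13 libraries. The authors list Trimmomatic 0.36, STAR 2.5.2b, featureCounts (Subread 1.5.2) and build GRCm38, per the submitters' processing notes. Annotation release, strand setting and handling of multi-mapping reads: not given in the sources used here. The deposited values are raw counts per Ensembl gene, not normalized. All columns matched a sample by the code in its description, and groups came from the genotype and diet labels. The sample titles call the flox libraries WT.

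Of 49315 gene rows, 49056 matched GENCODE M21, which gave symbols, types, GRCm38 coordinates, exon lengths and 3' UTRs. The test was that of edgeR 4.0.16 in R 4.3.3 (TMM, filterByExpr, robust quasi-likelihood F test, 4 group means over all 13 libraries, no covariate). Benjamini-Hochberg adjustment ran over 16496 genes, and a gene is called under 0.05. The standard error (SE) of a log2 fold change is its size over the square root of F. The procedure was tested on simulated data with changes of 1.5-fold or more. That does not show how well smaller changes, such as most of those in the members, would be found.

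Named members were the 4 per direction with the smallest p among called ones, or the 3 with the smallest p where fewer than 3 were called, plus 8 with a distinct role, the 3 highest and 3 lowest per kb, and those with an 8-base seed match. Other members named, such as Mrpl45, Mrpl24, Mrpl52 and Mrps26, were chosen after their values were seen. The members and all lists were chosen with earlier results of these data known. Trmt61b was left out of the assembly factors because GENCODE M21 does not type it as protein coding.

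Alternatives were DESeq2 1.42.0, limma 3.58.1 (voom with sample quality weights), size factors by relative log expression (RLE), library totals, no low-count filter, the replicate number as a block, only the compared groups in the fit, and leaving out each library.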

Additional observations from a re-analysis of the deposited data

Results flagged for a closer look

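HFSC flox is the only group of 4 libraries. Among 26 sets of its values tested, for the 25 named members and the summed level of all members, 2 held a library far from the others by Dixon's ratio at its 95% critical value. Chance gives about 1 in 20 such sets. Mrps14 was at 39.6 CPM in HFSC flox replicate 1, with the other 3 libraries at 36.5 to 36.7 CPM (ratio 0.937). Mrps34 was at 18.3 CPM in HFSC flox replicate 2, with the others at 19.9 to 20.1 CPM (ratio 0.884).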

How the results depend on the processing

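For KO against flox on chow, where edgeR called 0 of 78 members, DESeq2 called 3, limma voom 66 and scaling by library totals 1 (Mrpl44, lower), and leaving out 1 library gave 0 to 44. For HFSC against chow in flox, with 0 calls, limma voom gave 33 and leaving out 1 library 0 to 12. For HFSC against chow in KO, with 6 calls, library totals gave 17, no low-count filter 3, limma voom 15 (11 higher and 4 lower) and leaving out 1 library 0 to 10. All 6 were also called by DESeq2, limma voom and library totals. RLE size factors called 5 of them, without Mrpl45. The fit of only the compared groups called 7 members, of which 5 were among the 6, without Mrpl41. For the interaction, with 0 calls, limma voom gave 15 and leaving out 1 library 0 to 11. For KO against flox on HFSC the count was 0 under each alternative. Scaling by library totals shifted the median of all genes by -0.34 for KO against flox on chow and by 0.33 for the interaction, and reversed Mrpl16 for KO against flox on chow (-0.02) and Mrpl17 for the interaction (0.09). Among values of named members under an alternative, 385 kept direction and side of the threshold, 26 passed newly and 44 no longer passed. The cause of these changes was not tested.

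Replicate numbers are shared between groups. Of 16 pairs of libraries with the same number, 1 had a correlation of deviations above 0.1 (range -0.34 to 0.11). Pairs with different numbers ran from -0.41 to 0.39. Deviations from means of 3 or 4 libraries are tied to each other, so this check cannot decide whether the numbers pair the samples. With the replicate number as a block, 0 members were called in each comparison, including HFSC against chow in KO. For KO against flox on chow that fit called 0 of all genes tested. A fit of only the compared groups gives no interaction. Depth limits Mrpl53 most, which had 18 reads in its lowest library.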
